A study of Mus musculus with 4 samples.

Results

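The interleukin-1 and interleukin-36 family was followed in primary mouse keratinocytes that lack the glucose transporter Glut1. The set was a fixed list of 10 genes, of 30142 genes named on the array: the ligand genes Il1a, Il1b, Il18 and Il33, the IL-36 ligand genes Il1f6, Il1f8 and Il1f9, the antagonist genes Il1rn and Il1f5, and the receptor gene Il1rl2. All 10 were found under these symbols, each with 1 row. In current names Il1f5, Il1f6, Il1f8 and Il1f9 are Il36rn, Il36a, Il36b and Il36g.

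Wild-type (WT) and Glut1-deficient (KO) keratinocytes came from C57BL/6J mice at 1 week of age, 4 per genotype. They were grown in a keratinocyte medium with 0.05 mM CaCl2, EGF, insulin, hydrocortisone and pituitary extract, and reseeded after 3 days at 2000000 cells for harvest the next day. Each array held 2 plates of a genotype combined at random, so there were 2 arrays per genotype, and p-values measure only the spread between these pools. Neither the Cre driver nor the deleted part of the gene is given in the sources used here.

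Interleukin 1 family cytokines are alarm signals of barrier tissues. Il1a encodes IL-1 alpha, which keratinocytes store and which is active without cleavage, while IL-1 beta and IL-18 are cut to their active form, classically by caspase-1. Both IL-1 forms bind the receptor encoded by Il1r1, and the antagonist from Il1rn occupies that receptor without signalling. The IL-36 ligands use the receptor from Il1rl2 together with the shared accessory chain from Il1rap, and the product of Il1f5 blocks it. The pathways run through the adaptor MyD88 and IRAK kinases to NF-kB and induce chemokines and cytokines.

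Slc2a1, the gene of Glut1, was lower on both KO arrays (12.09 and 12.01 on the log2 scale) than on the WT arrays (13.26 and 13.40), a fall by 1.28 (SE 0.10, limma adjusted p = 0.00754). The keratinocyte genes Krt5 and Krt14 were bright on all 4 arrays. Krt5 read 18.61 and 18.69 on the WT arrays and 18.30 and 17.98 on the KO arrays, and Krt14 read 17.40 and 17.60 against 17.16 and 16.97. Both were lower on the KO arrays without passing (limma adjusted p = 0.0994 and 0.122). Array medians lay between 4.19 and 4.24. The background floor, below which a row is taken as not well above background, lay between 4.36 and 4.87. Without KO replicate 1 the adjusted p of Slc2a1 was 0.0508, and it ranged from 0.00545 to 0.0648 over the alternatives.

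In the KO cultures Il1f9 and Il1rn were higher and Il1a was lower. Il33 was also called higher, but of its signals only that of KO replicate 2 lay above the floor. Of the 10 genes 3 were called higher and 1 lower, and 6 did not pass. Over all 30604 rows tested 7.22% were called, 4.11% higher and 3.11% lower. The genotypes did not overlap in 9 of the 10 genes, against 49.7% of all rows. The median change of the 10 genes was 0.33 on the log2 scale and that of all rows -0.01. That 0.33 lay between the values of Il1f8, below the floor on every array, and Il1rl2, neither of them called. Of the 10 genes, 5 lay above the floor on every array and 4 lay at or below it on every array. Levels of different genes are not compared, since each row has its own probes.

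**Figure D1:**
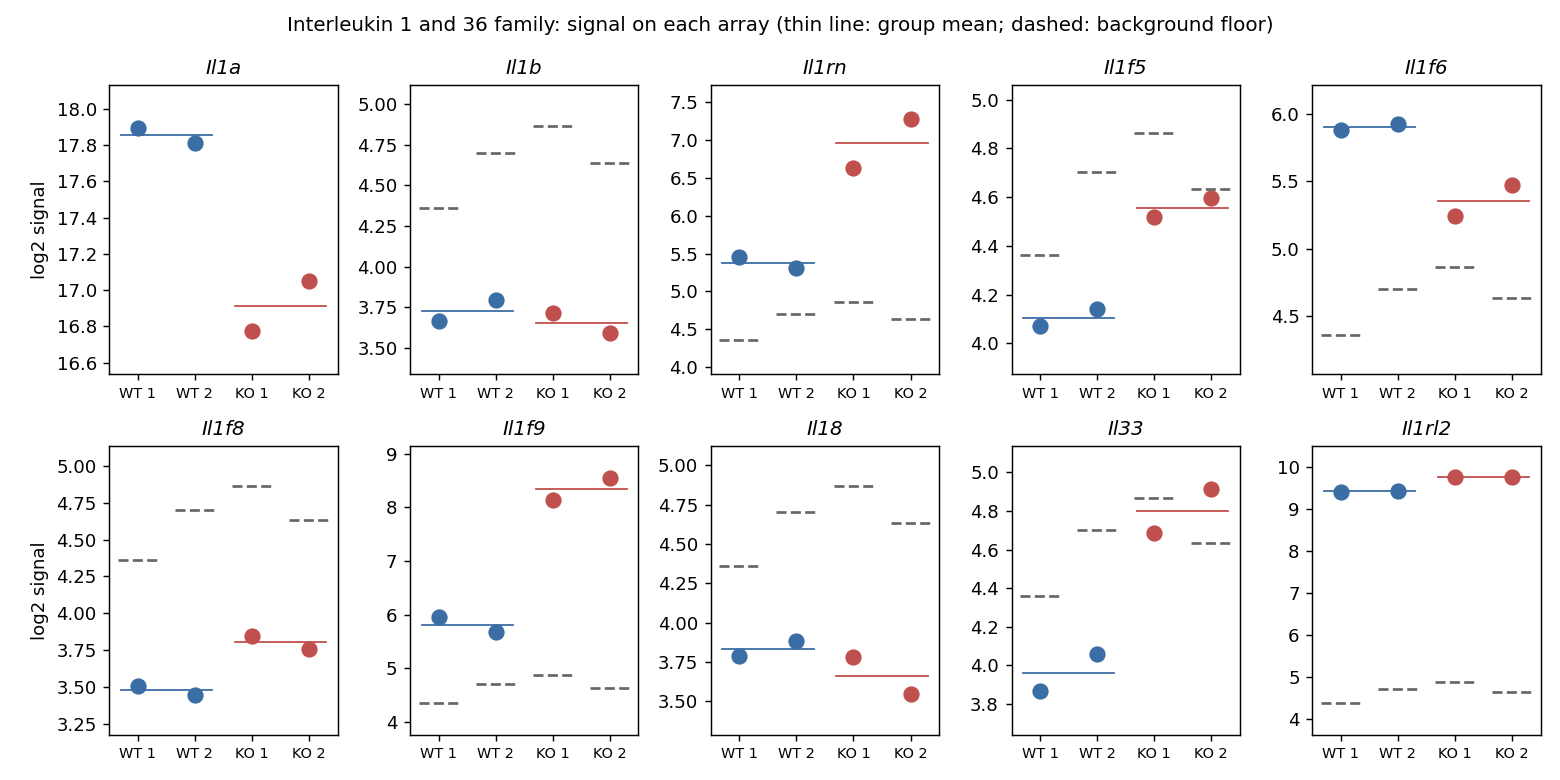
Log2 signal of the 10 family genes on the 2 WT arrays (blue) and 2 KO arrays (red), each panel with its own scale; thin lines are group means and dashed lines the background floor of each array (below the panel range for Il1a). Il1f9, Il1rn and Il33 sit higher and Il1a lower on both KO arrays, while Il1b, Il1f5, Il1f8 and Il18 stay at or below the floor throughout.

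Among the called genes, Il1f9 and Il1rn lie in one gene cluster of chromosome 2, and Il1a lies elsewhere on the same chromosome. Their RefSeq promoter windows (GRCm38.p6, 250 bases before to 50 after a transcript start, 5′ to 3′ on the gene's strand) are shown because these are the called genes well above background on all arrays. Capitals mark matches, on either strand, to 4 motifs: AP-1 (TGANTCA), NF-kB (GGG, any 5 bases, CC), a C/EBP and ATF type motif (TGATGNAA) and the E-box (CACGTG). Il1rn has 3 windows, of which the upstream and the downstream one are shown, as the middle one overlaps the latter.
Il1f9, chr2:24186226-24186525, plus strand: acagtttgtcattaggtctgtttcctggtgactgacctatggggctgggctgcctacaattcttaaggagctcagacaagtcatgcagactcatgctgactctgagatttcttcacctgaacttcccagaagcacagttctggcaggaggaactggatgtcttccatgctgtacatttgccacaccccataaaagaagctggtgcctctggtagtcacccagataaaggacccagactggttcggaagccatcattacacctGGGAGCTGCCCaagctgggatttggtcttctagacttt
Il1rn, upstream window, chr2:24336610-24336909, plus strand: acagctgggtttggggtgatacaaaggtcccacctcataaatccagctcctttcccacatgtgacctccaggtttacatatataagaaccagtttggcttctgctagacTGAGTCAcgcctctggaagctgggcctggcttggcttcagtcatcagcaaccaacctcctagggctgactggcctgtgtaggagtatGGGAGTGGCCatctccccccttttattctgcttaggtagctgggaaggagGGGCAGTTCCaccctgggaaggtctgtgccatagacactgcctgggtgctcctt
Il1rn, downstream window, chr2:24345121-24345420, plus strand: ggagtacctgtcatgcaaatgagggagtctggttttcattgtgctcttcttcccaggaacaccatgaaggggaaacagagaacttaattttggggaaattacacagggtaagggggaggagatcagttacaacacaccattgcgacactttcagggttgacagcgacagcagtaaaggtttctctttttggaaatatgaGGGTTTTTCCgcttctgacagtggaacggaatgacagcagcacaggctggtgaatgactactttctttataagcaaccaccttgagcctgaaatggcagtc
Il1a, chr2:129309923-129310222, minus strand: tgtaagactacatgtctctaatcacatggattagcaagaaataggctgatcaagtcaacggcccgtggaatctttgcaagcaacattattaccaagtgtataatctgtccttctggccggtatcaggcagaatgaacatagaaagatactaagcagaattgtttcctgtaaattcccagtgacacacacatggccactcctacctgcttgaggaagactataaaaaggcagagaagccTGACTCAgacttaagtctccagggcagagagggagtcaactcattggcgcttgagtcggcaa

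The Il1a window held 1 AP-1 match, TGACTCA, beginning 12 bases before the start, and no match to the other 3 motifs. The upstream Il1rn window held TGAGTCA, beginning 141 bases before the start, and 2 NF-kB matches. The downstream Il1rn window held 1 NF-kB match, and the Il1f9 window held 2 overlapping NF-kB matches just after the start and no AP-1 match. Among all 32851 mouse windows 7.81% held the AP-1 letters and 50.8% the loose NF-kB letters, so the latter are common. The C/EBP and ATF letters (3.97% of windows) and the E-box (7.15%) were in none of the windows of the family, which covered 9 of the 10 genes. Of the other family genes, Il1f8 held 1 AP-1 match and Il1f5 1 NF-kB match. These are matches of letters, not measured binding.

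Of the agonists, Il1f9 changed most. This gene of IL-36 gamma, a ligand made by activated epithelial cells, read 5.96 and 5.67 on the WT arrays and 8.13 and 8.54 on the KO arrays. Both KO values lay well above both WT values and all 4 lay above the floor. The rise was 2.52 on the log2 scale, or 5.75-fold (SE 0.18, 95% interval 2.06 to 2.99, n = 2 per group, limma adjusted p = 0.00593). Whichever array was left out the call held, with changes from 2.31 to 2.73 and adjusted p-values from 0.0156 to 0.0306. With every row of the table tested it missed the threshold (adjusted p = 0.0545, in a range over the alternatives from 0.00322). In RNA from pooled cultures, a larger share of cells that express a gene and more RNA per cell cannot be told apart.

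Il1f6, which encodes IL-36 alpha, differed in the other direction. It read 5.88 and 5.93 on the WT arrays and 5.24 and 5.47 on the KO arrays. The groups did not overlap, but the difference of -0.55 (SE 0.12, 95% interval -0.84 to -0.25) did not pass (limma adjusted p = 0.0583). It passed when only rows at or above the median mean were tested (adjusted p = 0.0378, in a range over the alternatives from 0.0378 to 0.221). The log2 change of Il1f6 minus that of Il1f9 was -3.07, a difference that was not tested. Il1f8, the gene of IL-36 beta, stayed below the floor with 3.51 and 3.45 on the WT arrays and 3.85 and 3.76 on the KO arrays, so no fold is given.

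Il1a read 17.90 and 17.81 on the WT arrays and 16.77 and 17.05 on the KO arrays. Both KO values were lower than both WT values. The fall was 0.94 on the log2 scale, or 1.92-fold (SE 0.13, 95% interval -1.27 to -0.62, limma adjusted p = 0.0211). These signals lie near the upper end of the deposited scale, which reached 19.7, and whether probes approached saturation was not tested. The call was lost without WT replicate 1, WT replicate 2 or KO replicate 1 (adjusted p = 0.0962, 0.0744 and 0.0773, in a range over the alternatives from 0.0141 to 0.106), with changes between -1.08 and -0.80.

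The other classical ligands were at background. Il1b read 3.66 and 3.79 on the WT arrays and 3.71 and 3.59 on the KO arrays, with overlapping groups (limma adjusted p = 0.791). Il18 read 3.79 and 3.88 against 3.78 and 3.55 (limma adjusted p = 0.510). Both genes lay under the floor on all 4 arrays, so neither a level nor a fold can be given for them. Il33, a nuclear alarmin, read 3.86 and 4.06 on the WT arrays, both below the floor, and 4.69 and 4.91 on the KO arrays, of which only replicate 2 lay above its floor.

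Il33 was called higher in the KO cultures, with measured group means of 3.96 (WT) and 4.80 (KO) (limma adjusted p = 0.0277). No minimum fold is given, since the KO mean includes replicate 1, which lay below its floor. The call failed in all 4 fits without 1 array (adjusted p from 0.0738 to 0.123, in a range over the alternatives from 0.0207 to 0.125). Il1rl1, the gene of the IL-33 receptor, has no row with a single symbol and was not analysed here.

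**Figure D2:**
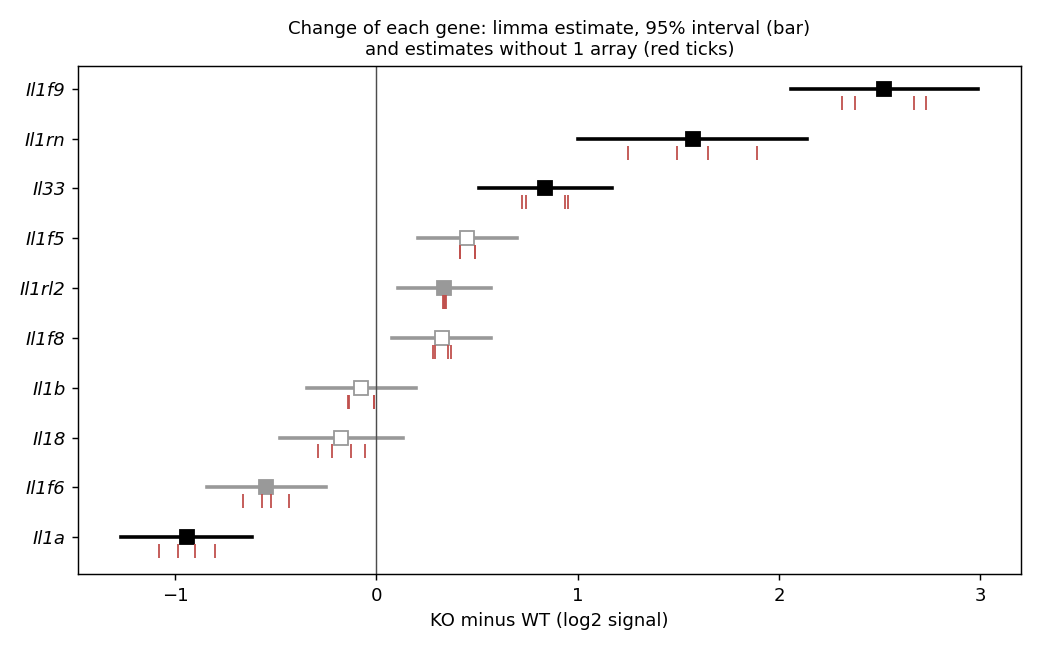
KO minus WT (log2 signal) for the 10 genes, with squares for the limma estimate, bars for its 95% interval and red ticks for the estimate without 1 array; black marks genes called at adjusted p under 0.05, grey genes not called, and open squares genes at or below the floor on all 4 arrays. Il1f9 lies farthest to the right at 2.52 and Il1a farthest to the left at -0.94; the estimate of Il33 rests on WT signals below the floor.

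The antagonist gene Il1rn rose. It read 5.46 and 5.30 on the WT arrays and 6.63 and 7.27 on the KO arrays. Both KO arrays were higher, replicate 2 more so, and all 4 values lay above the floor. The rise was 1.57, or 2.97-fold (SE 0.22, 95% interval 1.00 to 2.14, limma adjusted p = 0.0234). It was lost without WT replicate 1 or 2 (adjusted p = 0.0735 and 0.0785, in a range over the alternatives from 0.0146 to 0.111), with changes between 1.25 and 1.89. RefSeq lists several starts for Il1rn, which makes secreted and intracellular forms of the antagonist, and the row does not tell them apart.

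With Il1rn higher and Il1a lower, the log2 change of Il1a minus that of Il1rn was -2.51. This difference between the 2 genes was not tested. Il1f5, which encodes the IL-36 receptor antagonist, read 4.07 and 4.14 on the WT arrays and 4.52 and 4.60 on the KO arrays. The KO values were higher, but all 4 lay below the floor and the difference did not pass (limma adjusted p = 0.0591). It passed after quantile normalization (adjusted p = 0.0499, in a range over the alternatives up to 0.276).

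Il1rl2, the receptor gene for the IL-36 ligands, was well above background in both genotypes. It read 9.41 and 9.43 on the WT arrays and 9.76 on both KO arrays. The groups did not overlap, with less spread within each than between them. The difference of 0.34 (SE 0.09, 95% interval 0.11 to 0.57) did not pass (limma adjusted p = 0.101), and no alternative brought it past the threshold (adjusted p from 0.0678 to 0.380).

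Within the gene clusters, called genes lay beside genes that were not called. The IL-36 cluster of chromosome 2 runs, by protein-coding genes of RefSeq, from Il1f8 through Il1f9, Il1f6, Il1f5 and Il1f10 to Il1rn. Of its 6 genes Il1f9 and Il1rn were called higher, and Il1f6 between them was not called. Il1f10, the gene of IL-38, was at background on every array, from 2.89 to 3.06. The flanking genes Tbpl2 (-0.04) and Psd4 (0.47) were not called. Psd4, above the floor on every array, read higher on both KO arrays, as did Il1f8 and Il1f5, below the floor throughout. Il1f6 read lower on both. Elsewhere on that chromosome Il1a sits between Il1b and Ckap2l, a gene of the mitotic spindle that fell by 1.29 (SE 0.23, limma adjusted p = 0.0386). The lncRNA gene Gm14023 overlaps Il1a and read 5.79 and 5.61 on the WT arrays and 5.04 and 5.22 on the KO arrays (limma adjusted p = 0.0561). Whether its probes share sequence with those of Il1a was not tested.

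**Figure D3:**
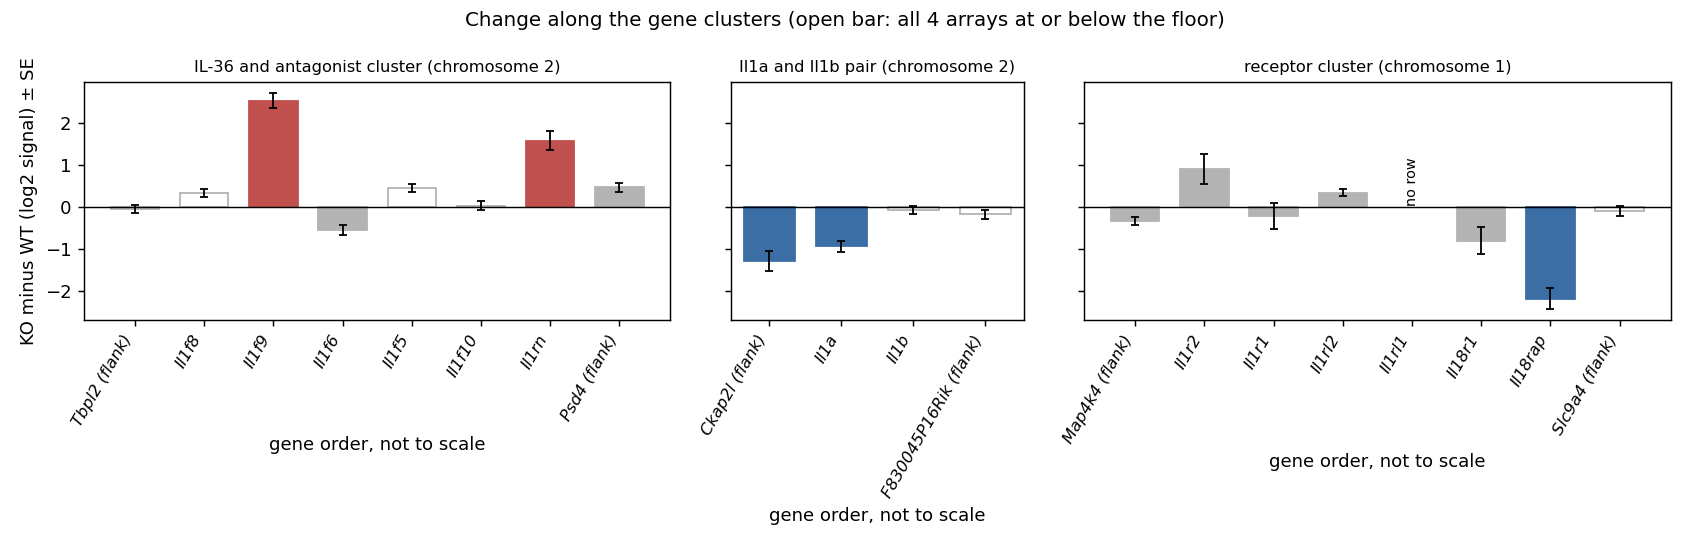
KO minus WT (log2 signal, error bars SE) of protein-coding genes in RefSeq order along the IL-36 cluster, the Il1a and Il1b pair and the receptor cluster of chromosome 1, each with its flanking gene on either side; red bars were called higher, blue lower, grey not called, and open bars lay at or below the floor on all arrays. Il1f9 and Il1rn stand up within their cluster, and Il18rap stands down at the end of the receptor cluster.

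The other receptor genes were mostly not called. Of 9 receptor and binding protein genes measured, 1 fell, 0 rose and the other 8 missed the threshold, with a median change of -0.10. The gene at that median was 1 of 3 in the list at or below the floor on every array. Over all rows 3.11% were called lower and 4.11% higher. Il1r1, the signalling receptor for IL-1, read 11.49 and 11.35 on the WT arrays and 10.72 and 11.67 on the KO arrays, so the groups overlapped (limma adjusted p = 0.784). The shared accessory chain gene Il1rap read 6.96 and 6.82 against 6.81 and 6.85 and also overlapped. Il1r2, a decoy receptor gene, lay below the floor on both WT arrays (4.30 and 4.42) and read 4.71 and 5.80 on the KO arrays, where only replicate 2 was above the floor.

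Il18rap, which encodes the signalling chain of the IL-18 receptor, was the one that fell. It read 8.16 and 7.82 on the WT arrays and 5.49 and 6.13 on the KO arrays. Both KO arrays were lower, all 4 lay above the floor, and the gene fell by 2.18 (SE 0.24, limma adjusted p = 0.0147). The call was lost by a small margin without WT replicate 1 or KO replicate 1 (adjusted p = 0.0504 and 0.0524, in a range over the alternatives from 0.00861 to 0.0871). Its partner chain gene Il18r1 read 10.38 and 9.72 against 8.86 and 9.64 and did not pass (limma adjusted p = 0.250).

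In the list of processing and release genes 1 of 23 rose, 1 fell and 21 did not pass. Of all rows tested, 4.11% were called higher and 3.11% lower. Of the 23 genes, 11 lay at or below the floor on every array, and the median change was -0.03. Gsdma, a pore-forming gasdermin of the epidermis, read 4.74 and 4.88 on the WT arrays and 6.17 and 5.97 on the KO arrays, a rise of 1.26 (SE 0.12, limma adjusted p = 0.00997). Nlrp10, a NOD-like receptor family gene, read 8.70 and 8.73 on the WT arrays and 7.60 and 7.54 on the KO arrays, and fell by 1.15 (SE 0.09, limma adjusted p = 0.00754). The call of Gsdma was lost without WT replicate 1 or KO replicate 1 (adjusted p = 0.0501 and 0.0557, in a range over the alternatives from 0.00704 to 0.0736), while that of Nlrp10 held without any 1 array. Casp1, the gene of caspase-1, lay close to the floor with 4.86 and 4.52 against 4.70 and 4.43, and only WT replicate 1 was above it.

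Among 15 adaptor and kinase genes 2 rose, 0 fell and 13 missed the threshold, with a median change of 0.06. Over all rows 4.11% were called higher and 3.11% lower. Peli2, a Pellino ubiquitin ligase gene, read 4.77 and 4.61 on the WT arrays, the latter below its floor, and 5.71 and 5.66 on the KO arrays. It rose by 1.00 (SE 0.11, limma adjusted p = 0.0133), and Irak1bp1, which encodes an IRAK1-binding protein, by 0.62 (SE 0.10, limma adjusted p = 0.0277). Irak1bp1 failed in all 4 fits without 1 array (adjusted p from 0.0803 to 0.154). Peli2 was lost without WT replicate 1, WT replicate 2 or KO replicate 1 (adjusted p = 0.0501, 0.0610 and 0.0725). Over the alternatives the adjusted p ranged from 0.0187 to 0.154 for Irak1bp1 and from 0.00941 to 0.0857 for Peli2. The adaptor gene Myd88 read 8.43 and 8.58 on the WT arrays and 8.59 and 8.32 on the KO arrays, with overlapping groups (limma adjusted p = 0.910). Irak1, Irak4 and Chuk have no row with a single symbol and were not analysed here.

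Genes that IL-1 and IL-36 are known to induce made up 10 of the 12 falls among 73 other pathway genes measured. Like the other lists, this one was chosen with earlier results of these data known. Of 25 such genes 10 fell, 1 rose and 14 did not pass, with a median change of -0.40 against -0.01 over all rows. Over all rows 3.11% were called lower and 4.11% higher. Among those that did not pass, Ptgs2 (0.42), Ccl20 (0.36), Tslp (0.28) and Nfkbia (0.25) read higher on both KO arrays. Icam1 (-1.74), S100a8 (-0.61) and Nfkbiz (-0.40) read lower on both, as did Il6 below the floor. Tnfaip3, the gene of the NF-kB inhibitor A20, read 11.53 and 11.62 on the WT arrays and 9.19 and 9.37 on the KO arrays, and fell by 2.30 (SE 0.11, limma adjusted p = 0.00294). Csf2, which encodes GM-CSF, read 8.81 and 8.67 against 5.17 and 5.77, and fell by 3.27 (SE 0.21, limma adjusted p = 0.00508). Il23a, the gene of the specific subunit of IL-23, read 14.03 and 13.50 against 11.62 and 12.02, and fell by 1.95 (SE 0.23, limma adjusted p = 0.0160). In Tnfaip3, Csf2 and Il23a both KO arrays were lower than both WT arrays.

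Also called lower were the chemokine genes Cxcl2 (-2.36), Cxcl3 (-3.44) and Cxcl5 (-4.80), the cytokine gene Il24 (-4.66) and Csf3 (-2.07), the gene of G-CSF. So were Cxcl1 (-1.41) and Zc3h12a (-1.35), the smallest changes of the 10 called falls. Neither kept its call in every fit without 1 array, with changes from -1.69 to -1.13 and from -1.55 to -1.15. The change of Cxcl5 was -3.94 without WT replicate 1 and -5.67 without WT replicate 2. The only called rise was that of the lipocalin gene Lcn2, by 0.58, which was named after its value was seen. Its call failed in all 4 fits without 1 array, with changes from 0.53 to 0.63. With 1 array left out 4 to 9 of the 25 genes were called lower, the fewest without KO replicate 1. In that fit Cxcl3, Cxcl5, Csf3 and Il23a missed the threshold (adjusted p = 0.0562, 0.0918, 0.0892 and 0.0818), and without KO replicate 2 Cxcl5 and Csf3 did so (0.0619 and 0.0677). Over the alternatives the adjusted p of these 4 genes lay between 0.00289 and 0.0918. Tnfaip3, Csf2, Cxcl2 and Il24 passed without any 1 array.

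**Figure D4:**
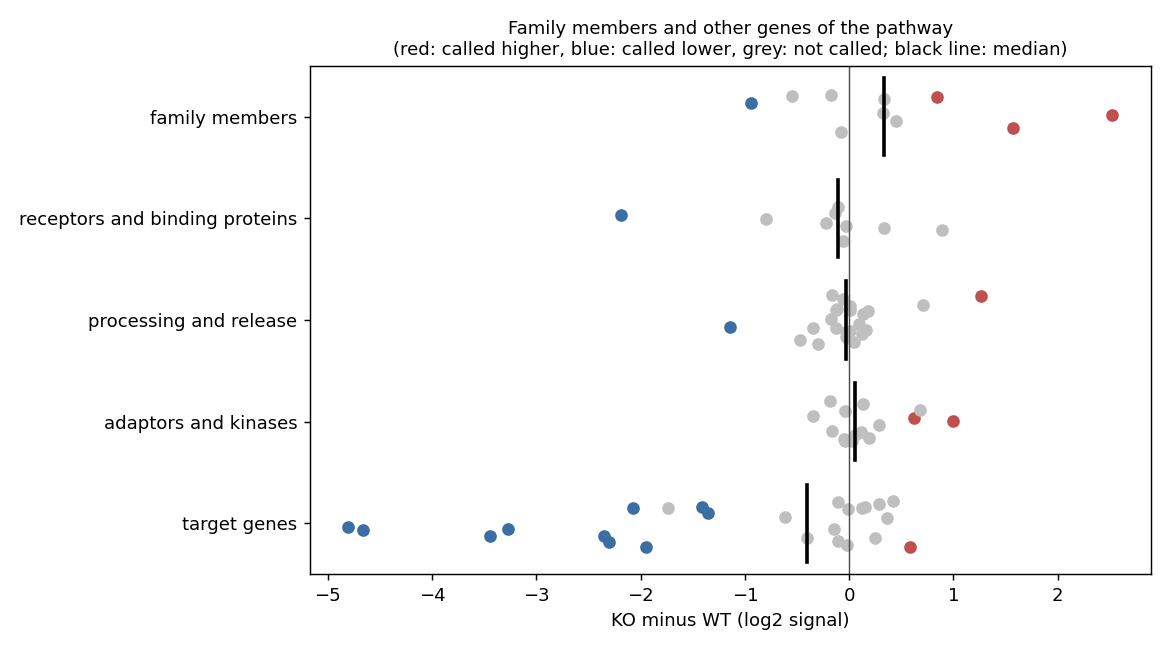
KO minus WT (log2 signal) of the 10 family genes and of 4 lists of other pathway genes, 1 point per gene (vertical scatter only separates points), with red called higher, blue called lower, grey not called and the black line the median of each list. The family genes spread to both sides, with a median of 0.33, while 10 of the 25 target genes lie among the blue points on the left.

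The 3 genes whose profile over the 4 arrays, each centred on its own mean, lay closest to that of Il1f9 were Ccdc3, Ddr2 and Hpgds, at root mean square distances of 0.0350, 0.150 and 0.195 log2 units. Ddr2 encodes a collagen receptor kinase and Hpgds a prostaglandin D synthase. For Il1rn they were Lrp1, Havcr2 and Slit3, at 0.0239, 0.0603 and 0.0621. Lrp1 encodes an endocytic receptor, Havcr2 an immune checkpoint receptor and Slit3 a secreted guidance protein. The search covered 11047 genes above the floor on at least 2 arrays, after predicted and unnamed loci, microRNA and small nucleolar RNA genes were left out. With 4 arrays the genotype contrast sets most of this likeness.

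Some markers of other cell types moved in the same direction as Il1f9, Il1rn and Il33. For 10 genes of Langerhans cells, dendritic cells and macrophages the log2 of the summed signal was 8.48 and 8.56 on the WT arrays and 9.58 and 10.36 on the KO arrays. That sum was carried by Cd68, a lysosomal protein gene, which rose by 1.95 (limma adjusted p = 0.0267). The other 9 did not pass. Of these, H2-Ab1 (-0.26) lay above the floor on every array and read lower on both KO arrays. The remaining 8 of the 10, among them Cd207, Ptprc, Csf1r, Adgre1 and Lyz2, lay at or below the floor on every array.

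For 7 melanocyte genes the summed level was 10.55 and 10.05 on the WT arrays and 12.38 and 11.14 on the KO arrays, with 1 of 7, Pmel, called higher. Dct and Tyrp1, enzymes of melanin synthesis, were 1.84 and 1.49 higher without passing. Mlana (1.06), Mitf (0.43) and Tyr (0.48), the last near the floor, also read higher on both KO arrays without passing. The groups of Sox10 overlapped. For 5 fibroblast genes the summed level was 6.62 and 6.61 against 7.09 and 7.36, and 1 of 5, Dcn, was called higher, from below the floor. Col1a1 (0.22), above the floor on every array, and Col1a2 (0.40), near it, read higher on both KO arrays without passing. So did Col3a1 (0.20) and Lum (0.21), below the floor on every array. For 5 endothelial genes the summed level was 7.06 and 7.25 against 10.22 and 9.63, carried by the VEGF receptor gene Kdr (3.60). Pecam1 (-0.32), above the floor only on WT replicate 1, read lower on both KO arrays. Cdh5, Tek and Emcn lay below the floor on every array. The part of these cell types in the changes of Il1f9, Il1rn and Il33 was not tested. In the T cell, mast cell and neutrophil lists no gene was called, and the summed level differed by at most 0.236 between any 2 arrays. Only Thy1 (0.37) and Kit (0.30) lay above the floor on more than 1 array, and both read higher on both KO arrays. Of the genes at or below it on every array, Cd3d, Cd3e and Tpsb2 read lower on both, and Fcer1a and Elane higher. For the 8 keratinocyte genes the summed level was 19.51 and 19.63 on the WT arrays and 19.39 and 19.15 on the KO arrays, with a median change of -0.22. Of these 8, Dsg3, a desmosomal cadherin gene, rose by 0.92 and 7 did not pass. Among the latter, Itgb4 (-0.77), Krt5 (-0.51), Krt14 (-0.43) and Itga6 (-0.33) read lower on both KO arrays than on both WT arrays. Krt15 (-0.10), near the floor, did so too, while Trp63 (0.18) and Dsp (0.15) read higher on both KO arrays. The part of these keratinocyte gene differences in the changes of the family genes was not tested.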

How the data were processed

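RNA from 4 pools of 2 plates each was hybridised to Affymetrix MTA-1_0 arrays of 1 channel. The deposited values are log2 signals for each transcript cluster, summarised by the authors with RMA in Affymetrix Expression Console, per the submitters' processing notes, and named gene-level SST-RMA per the labels. Tool versions, annotation release and build are not stated there. RMA equalises the distributions of the arrays, which would remove a shift common to most genes, and the SST transformation may give other folds than plain RMA.

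Of 72688 rows, 30604 carried exactly 1 gene symbol in a platform table, and these named 30142 genes. Through Entrez identifiers 827 symbols were updated to RefSeq (GRCm38.p6). KO and WT arrays were compared over these rows with limma 3.58.1 (R 4.3.3, lmFit, default eBayes), two-sided, Benjamini-Hochberg adjusted over all of them, and called at adjusted p under 0.05. Standard errors (SE) and 95% intervals are moderated. The brightest row stood for a gene. The floor of an array was the 95th percentile over its 23 background control rows.

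The code was tested on simulated data. Named genes were all members, Slc2a1, up to 8 called genes with the smallest p per pathway list, 7 fixed pathway genes, nearest profiles and markers. Flanking and overlapping genes, taken by position, and Il18r1, Lcn2, Cxcl1 and Zc3h12a were added after their values were seen. The members and lists were chosen with earlier results of these data known. Alternatives were 2 normalizations, 3 sets of rows, trended robust moderation, a replicate block and leaving out each array.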

Additional observations from a re-analysis of the deposited data

How the results depend on the processing

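The limits lie in 2 arrays per genotype and in 4 of the 10 genes being at or below the background floor on every array. Testing every row of the table, where 74 rows were called in place of 2209, lost all 4 called members: Il1a at -0.94, Il1rn at 1.57, Il1f9 at 2.52 and Il33 at a fitted 0.84 had adjusted p-values of 0.106, 0.111, 0.0545 and 0.125, and Slc2a1 at -1.28 had 0.0648. It left 0 members higher and 0 lower, and 0 pathway genes higher and 1 lower, that 1 being among the target genes. With rows at or above the median mean, 2 members were called lower, Il1f6 joining Il1a.

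With 1 array left out, where the lone array of a group is assumed to vary like the others, 1 to 2 members were called higher and 0 to 1 lower. Log2 changes ran from -1.08 to -0.80 for Il1a, from 1.25 to 1.89 for Il1rn and from -1.35 to -1.21 for Slc2a1. The fitted change of Il33, whose WT signals and KO replicate 1 lay below the floor, ran from 0.72 to 0.95. Pathway genes called higher numbered 0 to 4, lower 5 to 11, target genes lower 4 to 9, and rows called 314 to 1214. No alternative turned the direction of any member.

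With a replicate block 1849 rows, 3 members higher and 1 lower were called. Equal numbers share nothing stated, and their deviations correlated at -0.23. Among pathway genes the block gave 3 higher and 13 lower, without Irak1bp1 (adjusted p = 0.0503) and Lcn2 (0.0665).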
